A study of Sus scrofa domesticus and Sus scrofa with 18 samples.

Results

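Among 12913 protein-coding genes measured in pig spleen, 92 genes had their highest domestic level at 2 years of age. A gene was a member when its mean level in the adult A2Y group lay at least 0.75 above the mean of each of the 4 younger domestic groups, and when its mean over the 18 libraries was below 10. Levels are log2(FPKM+1), where FPKM counts fragments scaled to transcript length and to the mapped fragments of the library, so that a difference of 1 is about 2-fold in a well expressed gene and more than that in a low one. By the same margin, 528 genes peaked at E55d, 91 at B0d, 40 at W30d and 100 at A180d. The cap on the mean level removed 0 genes.

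RNA of whole spleen was sequenced from 3 female animals in each of 6 groups. The domestic animals were Rongchang pigs, an indigenous Chinese breed, sampled 55 days before birth (E55d), just after birth (B0d), 30 days after weaning (W30d), at 180 days (A180d) and at 2 years (A2Y). The sixth group was the Wild Boar (WB), also female and 2 years old, and collected in Ya'an. A2Y and WB differ in breed and in place, which cannot be told apart.

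The spleen filters blood. Macrophages of its red pulp take up old red cells and recycle their iron, and lymphocytes of the white pulp respond to antigens carried in the blood. In the pig, the capsule and the trabeculae that run through the organ hold smooth muscle, whose contraction expels stored blood.

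A symbol was found for 43 of the 92 members, which is 46.7%, against 63.6% of all genes. The other 49 members carry only an identifier, 3 of them from the Vega annotation. By what the named members are known to do, several belong to the contractile apparatus (ACTC1, MYH11, ACTG2, CNN1, PGM5, DTNA and DSTN), several to macrophage and immune signalling (SPIC, FCER1G, NFKBIZ, CD80 and IL7R), and 3 to potassium channels (KCNE1, KCNAB1 and KCNIP1). This grouping was made after the members were known and is a description without a test.

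The members were modestly expressed. Their mean level over the 18 libraries had a median of 2.99, with a range from 0.59 to 9.23, against a median of 2.41 over all genes. The margin of the A2Y mean over the highest younger mean had a median of 0.93. It was at least 1 in 33 members and at least 1.5 in 8. The highest younger group was A180d for 45 members, W30d for 29, B0d for 11 and E55d for 7, and the lowest was E55d for 69. In 26 members the group mean was higher at each step from E55d to A2Y, as it was in 751 genes of the whole table. All of these values entered the choice of the members and are given as a description.

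**Figure D1:**
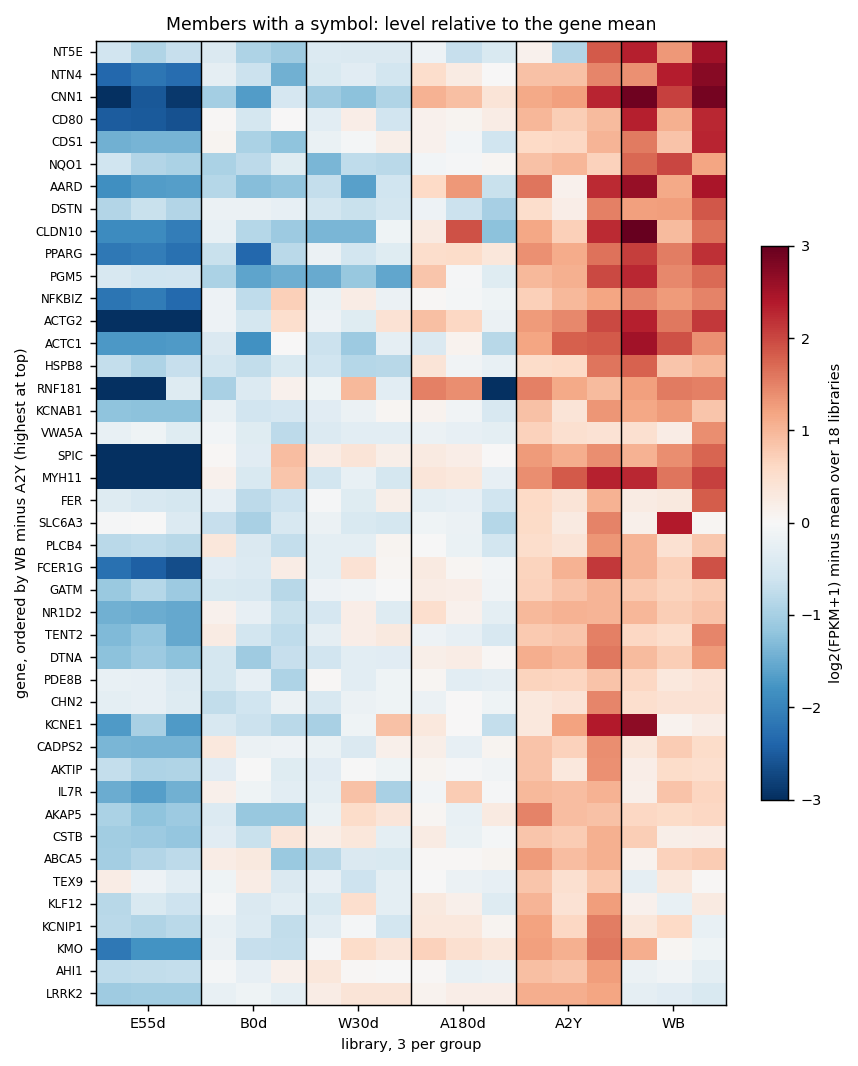
Level of the 43 members with a symbol (rows) in the 18 libraries (columns, 3 per group) as log2(FPKM+1) minus the mean of the gene over the libraries, with colours that end at 3 above and 3 below that mean. The E55d columns are blue in most rows and the A2Y columns are mostly red, while the WB columns run from darker red than A2Y at the top (NT5E) to blue at the bottom (LRRK2).

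Among the genes with a symbol, the largest margins were those of the contractile genes ACTC1 (1.98) and MYH11 (1.68). ACTC1 (ENSSSCG00000004803), the actin of the heart muscle, was measured at 3.15, 3.78 and 3.82 in the A2Y libraries. Among the domestic groups its mean was 0.26 ± 0.01 (SD, n = 3) for E55d, 1.23 ± 0.95 for B0d, 1.31 ± 0.41 for W30d, 1.60 ± 0.47 for A180d and 3.58 ± 0.37 for A2Y, and it was 3.91 ± 0.57 for WB. Every A2Y and WB library of this gene lay above every younger library, and the ratio of mean FPKM between A2Y and the highest younger group was 5.26.

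MYH11 (ENSSSCG00000000146), the myosin heavy chain of smooth muscle, was at 1.00, 1.14 and 0.82 in E55d and at 4.82, 4.22 and 5.52 in B0d. Its values were 5.05, 5.00 and 4.44 in A180d, 6.07, 6.52 and 7.0 in A2Y, and 6.95, 6.28 and 6.75 in WB. The A2Y and WB libraries overlapped each other and lay above all younger libraries. ACTG2 (ENSSSCG00000008294), an actin of smooth muscle, had a margin of 1.12 and group means of 5.57 ± 0.55 in A180d, 6.69 ± 0.37 in A2Y and 7.14 ± 0.38 in WB (SD, n = 3). The actins are nearly identical as proteins, and how the authors' quantification shared reads among the related genes ACTC1, ACTG2 and ACTA2 is uncertain.

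PGM5 (ENSSSCG00000005243), a protein of muscle cell adhesions, was lowest after birth. It was at 2.63 ± 0.33 in B0d and 2.55 ± 0.24 in W30d, against 3.40 ± 0.07 in E55d, 4.10 ± 0.61 in A180d and 5.29 ± 0.56 in A2Y (SD, n = 3). DTNA, a component of the dystrophin complex, had a margin of 1.08 and A2Y values of 2.59, 2.49 and 3.10. CNN1 (ENSSSCG00000013614), calponin, had already reached 5.21, 5.06 and 4.54 in A180d, and its A2Y values of 5.30, 5.40 and 6.45 left the small margin of 0.78. All 3 genes had A2Y libraries above every younger library.

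The remaining 5 genes of the smooth muscle list of 8 were measured and were no members. From A180d to A2Y, SYNPO2, an actin-binding protein of contractile cells, rose by 1.24 (limma, SE 0.20, adjusted p = 0.00129), and 10.8% of all genes were called higher in this comparison. ACTA2 (0.25), TAGLN (0.27), DES (0.49) and MYLK (0.57) were not called, with adjusted p from 0.0938 to 0.549. Members, chosen for a high A2Y mean, stand outside this comparison, which leaves fewer rises to be found. The summed FPKM of the 8 genes ranged from 212 to 228 in E55d, from 512 to 872 in B0d, from 410 to 455 in W30d, from 515 to 730 in A180d, from 764 to 1179 in A2Y and from 1454 to 2199 in WB, and no gene of the list was at 0 in any library. The A2Y sums lay above those of E55d, W30d and A180d and overlapped those of B0d. These sums include the members MYH11, ACTG2 and CNN1, which the rule chose for their high A2Y means. The rule therefore favours a high A2Y sum, and the order of the sums is a description only. The part of the smooth muscle content in the levels of the contractile members was not tested. In these samples of whole organ, more cells of a type and more RNA per cell cannot be told apart.

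**Figure D2:**
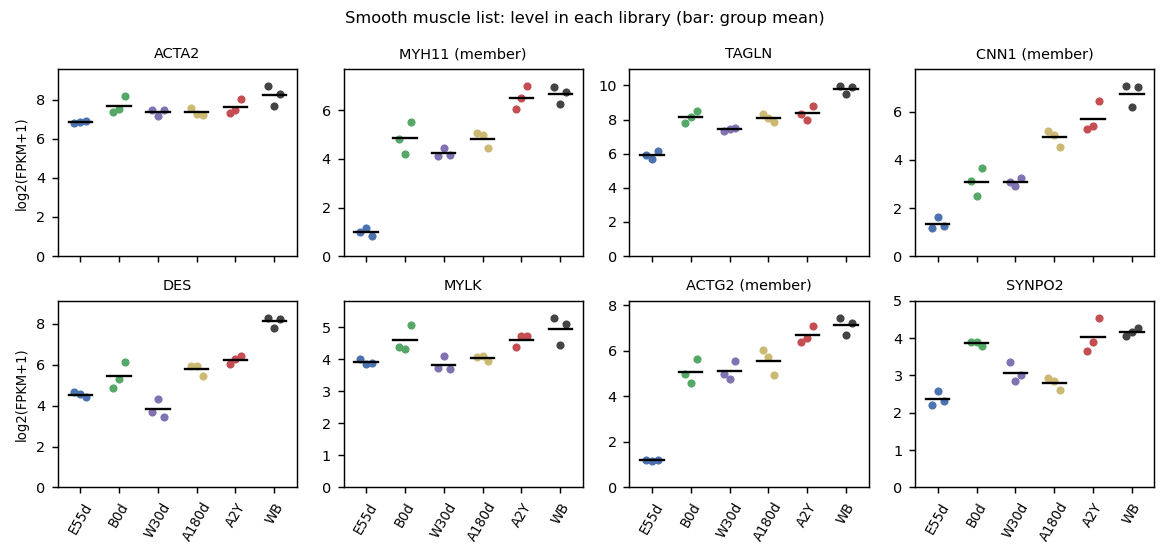
Level in log2(FPKM+1) of the 8 genes of the smooth muscle list in each library (points) and as group mean (bars) for the 6 groups. MYH11 and SYNPO2 lie higher in A2Y than in A180d, TAGLN and DES lie higher in WB than in A2Y, and CNN1 lies higher in A180d than in W30d.

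Among the members with a known role in immune cells, SPIC (ENSSSCG00000000867) had the highest level per transcript length. SPIC is the transcription factor on which the red pulp macrophages depend. It was at 3.55, 3.54 and 3.32 in E55d, between 6.40 and 7.66 in the 9 libraries from birth to 180 days, and at 8.01, 7.82 and 8.13 in A2Y. The WB values of 7.77, 8.13 and 8.48 spanned those of A2Y.

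Of the 14 genes of the macrophage list 8 were matched, and the other 7 beside SPIC held 0 genes called higher or lower in A2Y than in A180d (limma, adjusted p from 0.0679 to 0.81 over the 7 genes). The rule had taken SPIC out for its high A2Y mean, which favours a low count of rises among the rest. The summed FPKM of the 8 genes was from 2050 to 2302 in A180d and from 2078 to 2349 in A2Y, ranges that overlap. FCER1G (ENSSSCG00000006357), the signalling chain shared by several Fc receptors, had a margin of 1.19 with A2Y values of 6.24, 6.61 and 7.69. All 3 lay above the younger libraries, and A2Y-3 stood well above the other A2Y libraries.

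NFKBIZ (ENSSSCG00000011951), a nuclear regulator of NF-kB target genes, had almost equal means of 3.16 ± 0.74, 3.16 ± 0.23 and 3.17 ± 0.08 in B0d, W30d and A180d, and of 4.18 ± 0.23 in A2Y (SD, n = 3). CD80 (ENSSSCG00000011899), a ligand with which antigen-presenting cells co-stimulate T cells, was at 3.83, 3.79 and 3.93 in A180d and at 4.70, 4.44 and 4.66 in A2Y. IL7R, a cytokine receptor chain of T cells, had the means 3.61 ± 0.47 in A180d and 4.37 ± 0.05 in A2Y (SD, n = 3). The 3 A2Y libraries of IL7R lay between 4.32 and 4.43, close above the single highest W30d library at 4.27. The other 8 measured genes of the T cell list of 11 held 0 genes called between A180d and A2Y, and their median difference was -0.36. Here too the rule had removed a gene with a high A2Y mean, and with IL7R the median was -0.30.

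The potassium channel subunits were low. KCNE1 (ENSSSCG00000012049), a regulatory subunit, was at 2.01, 2.92 and 4.09 in A2Y and at 4.39, 1.82 and 1.92 in WB. These groups overlapped each other and the younger libraries, which ran from 0 to 2.58, so its margin of 1.38 rests on libraries that differ widely. KCNAB1, a beta subunit, had means of 1.20 ± 0.29 in A180d and 2.22 ± 0.47 in A2Y (SD, n = 3).

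Other members with large margins were of mixed function. They were CLDN10, a claudin of tight junctions (margin 1.06), ABCA5, a membrane transporter (1.04), RNF181, a ubiquitin ligase (1.02), CADPS2, which acts in vesicle release (0.98), and TENT2, an enzyme that adds adenosines to RNA (0.97). CLDN10 was at 2.60, 4.25 and 1.11 in A180d and at 3.49, 3.07 and 4.58 in A2Y, so these groups overlapped. CLDN10 and TENT2 no longer met the rule without A2Y-3. RNF181 was at 4.95 and 4.84 in 2 libraries of A180d and at 0.37 in the third, against 4.96, 4.57 and 4.40 in A2Y. Of the A2Y values, 1 lay just above the 2 higher A180d libraries and the others lay below both. Of the members without a symbol, ENSSSCG00000025386 had the largest margin of the whole set, 3.18, with A2Y values of 8.11, 4.77 and 9.22 (named after its values were seen). One of its A2Y libraries lay below 2 of the younger ones.

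At the edge of the rule, CD80 (margin 0.75) and GATM (0.76), an enzyme of creatine synthesis, were just inside among genes with a symbol. OSTM1, the partner of a chloride transporter of lysosomes, and FMO4, a monooxygenase, were just outside with 0.73 each. The means of OSTM1 were 4.53 in A180d, 4.56 in W30d and 5.30 in A2Y, and those of FMO4 were 2.72 in A180d and 3.46 in A2Y.

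**Figure D3:**
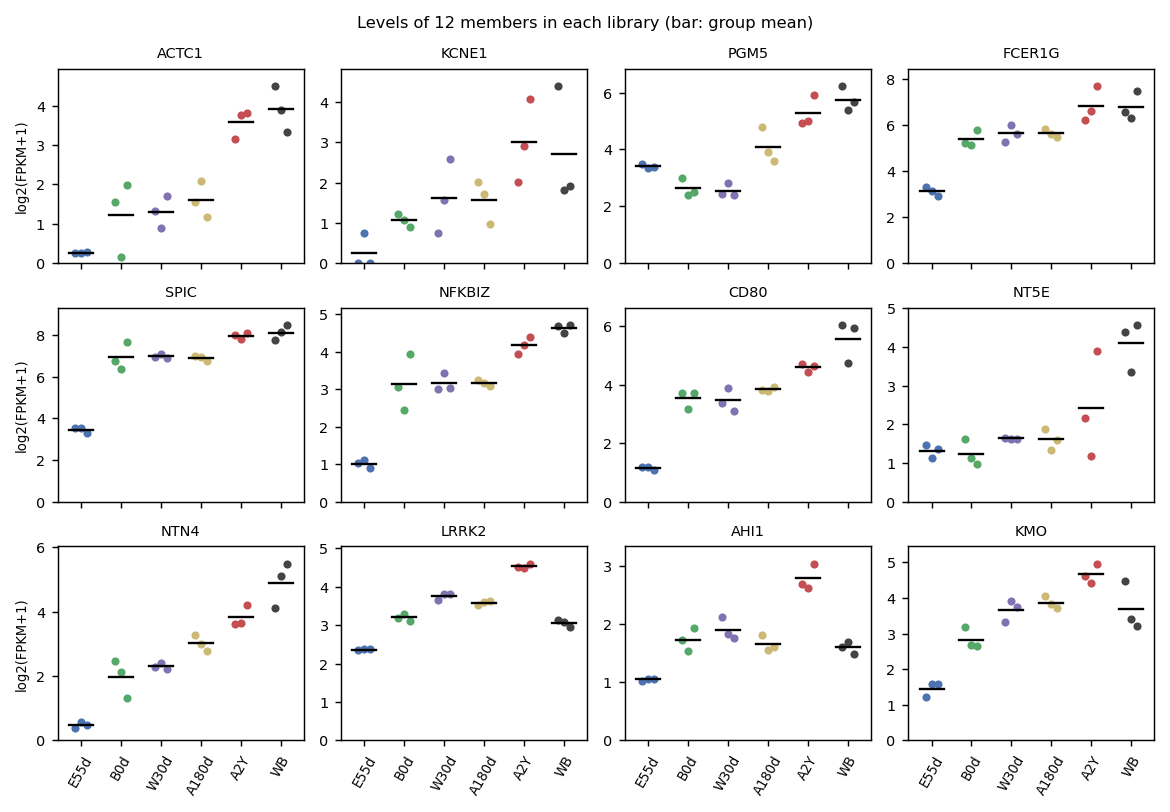
Level in log2(FPKM+1) of 12 members in each library (points) and as group mean (bars) for the 6 groups. NT5E and KCNE1 show wide A2Y groups, CD80, NTN4 and NT5E lie higher in WB than in A2Y, and LRRK2 and AHI1 lie in WB below the W30d libraries.

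The 3 A2Y animals did not contribute alike. In 65 of the 92 members, all 3 A2Y libraries lay above all 12 younger domestic libraries, as they did in 3.99% of all genes, a count that the rule favours. The library A2Y-3 was the highest of the 3 in 58 members, A2Y-1 in 30 and A2Y-2 in 4, whereas over all genes these shares were 38.3, 42.4 and 19.4%. A2Y-2 was the lowest of the 3 in 55 members, against 50.3% of all genes. The SD within A2Y had a median of 0.46 over the members and 0.19 over all genes, and within WB, which the rule used only through the cap on the mean, 0.43 and 0.25.

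To obtain values in a library that the rule had not used, the members were chosen again from 2 A2Y libraries and read in the remaining one. Chosen without A2Y-1, 98 genes were obtained, of which 50 (51.0%) kept the margin in A2Y-1 and 93 lay above the 4 younger means in it. Without A2Y-3, 80 genes were obtained, of which 41 (51.3%) kept the margin in A2Y-3 and 65 lay above the younger means. Without A2Y-2, 161 genes were obtained, and 28 (17.4%) kept the margin in A2Y-2 and 134 lay above the younger means.

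Over all genes, the margin was met by 1.46% in A2Y-1, 2.30% in A2Y-3 and 0.472% in A2Y-2. The median margin in the library left out was 0.75, 0.79 and 0.46 for A2Y-1, A2Y-3 and A2Y-2, each below the 0.91, 0.91 and 0.93 in the libraries used. The margin was therefore smaller in an animal that had no part in the choice, and smallest in A2Y-2. The younger means in these margins did take part in the choice, since they had to be low. The shares and medians in the library left out are thus still favoured by the rule.

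The set also shrank with the scaling of the libraries. When each library was divided by the median ratio of its genes, 58 of the 92 members met the rule, among them 27 with a symbol. ACTC1 (1.87), MYH11 (1.55), KCNE1 (1.28), PGM5 (1.06) and FCER1G (1.05) kept margins above 1 in this setting. CNN1, CD80, NT5E, NTN4, NQO1, KMO, IL7R and LRRK2 were among the members that fell short of 0.75, with margins from 0.615 for CD80 to 0.746 for NQO1. When each A2Y library was left out in turn, 42 members met the rule every time, and 40 did so under both conditions, 17 of them with a symbol.

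Before 2 years, the largest median step of the members was around birth. The rule did not use this difference, but the means of both groups entered it, since each had to lie below the A2Y mean. From E55d to B0d, 39 members rose and 1, without a symbol, fell (limma, adjusted p of at most 0.05), where 22.3% of all genes were called higher and 12.6% lower. Their median difference was 0.71 against 0.13 over all genes. ACTG2 rose by 3.88 (SE 0.31, adjusted p = 1.9e-07), MYH11 by 3.87 (SE 0.29, adjusted p = 1.2e-07) and SPIC by 3.47 (SE 0.25, adjusted p = 7.8e-08). CD80 (2.39), FCER1G (2.27), NFKBIZ (2.14) and CNN1 (1.74) rose as well, 20 members with a symbol in all. ACTC1 (0.97, adjusted p = 0.0651) and KCNE1 (0.82, adjusted p = 0.318) were not called, and PGM5 was at -0.78 (adjusted p = 0.0594). With the libraries scaled by their median ratio, 34 members were called higher and 3 lower, and the calls over all genes shifted from 2886 higher and 1621 lower to 2364 and 2444 as their median moved from 0.13 to 0.01.

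The later steps were small. From B0d to W30d, 8 members rose, with 8.01% of all genes called higher. The 4 of them with a symbol were AKAP5, a scaffold of signalling kinases (1.13), KMO (0.83), LRRK2 (0.55) and GATM (0.50). From W30d to A180d, 10 members rose, with 12.8% of all genes called higher, among them CNN1 (1.85), PGM5 (1.55), NQO1 (0.96), HSPB8, a small chaperone (0.78), and DTNA (0.55). No member fell in either step by limma's adjusted p, against 7.61 and 15.4% of all genes, and 0 and 1 member were lower at an unadjusted p of at most 0.05. Some alternatives called members lower, such as 2 from W30d to A180d in a model of those groups alone and 1 from B0d to W30d without B0d-2. The means of these groups also entered the rule. The shares of members called higher, 8.70 and 10.9%, were near those of all genes. The calls from B0d to W30d came to 5 without W30d-2 and 4 without W30d-3, and those from W30d to A180d to 5 without W30d-1, W30d-3, A180d-1 or A180d-2.

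Wild Boars of the same age showed levels near those of A2Y for the set as a whole, with single members far above and below. The difference of WB minus A2Y had a median of -0.09 over the 92 members (quartiles -0.58 and 0.33, range from -2.44 to 1.69), against 0.01 over all genes. The WB mean was at or above the A2Y mean in 42 members (51.1% of all genes had it above), between the highest younger mean and the A2Y mean in 37, and at or below the highest younger mean in 13. No share over all genes was computed for the counts of 37 and 13. By limma, 7 members were called higher in WB, where 10.8% of all genes were, and 11 were called lower, where 9.57% were. The 18 calls in either direction are 19.6% of the members, near the 20.4% of all genes. An unadjusted p of at most 0.05 was found for 33 members, but without a share over all genes this count cannot be set against the background. The model of 6 groups pools their spread. The median SD of the members was 0.46 in A2Y and 0.43 in WB, against 0.14 to 0.34 in the younger groups. The pooled SE can therefore be too small for A2Y and WB. In a model of A2Y and WB alone 0 members were called higher and 6 lower (limma, adjusted p). Higher calls came to 2 without A2Y-1, 1 without A2Y-2 and 1 without WB-3, and lower calls to 6 without A2Y-1 and 6 without A2Y-3. All 3 WB libraries lay above all 3 A2Y libraries in 5 members (17.5% of all genes) and below them in 16 (17.4%).

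These comparisons share the A2Y libraries that chose the members. For the sets chosen without 1 A2Y library, the median of WB minus that library was 0.37 for A2Y-1, 0.23 for A2Y-2 and -0.33 for A2Y-3, where WB minus the libraries used gave 0.01, -0.33 and -0.56. By these medians the WB level lay above A2Y-1 and A2Y-2 and below A2Y-3 when each was read outside the choice. Over all genes, the median of WB minus the same library was -0.04 for A2Y-1, 0.09 for A2Y-2 and -0.01 for A2Y-3. Members whose highest A2Y library was A2Y-1 had a median WB minus A2Y of -0.57 (WB above in 5 of 30), and those whose highest was A2Y-3 had 0.11 (WB above in 35 of 58). All genes split in the same way had medians of -0.04 and -0.01. This split uses the A2Y values that also enter the difference and is a description only.

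**Figure D4:**
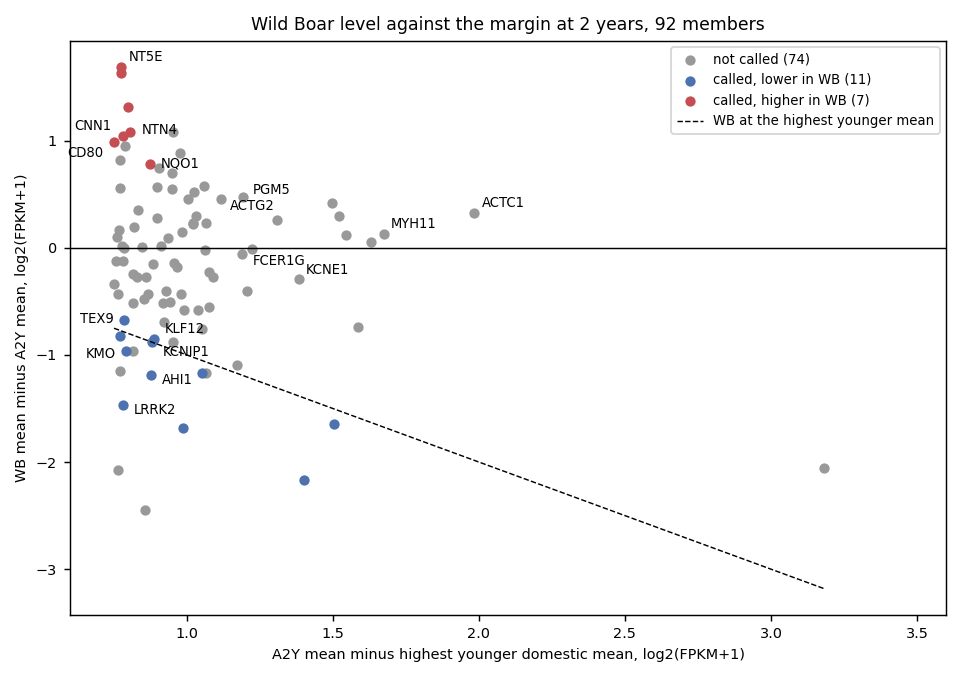
Difference of the WB and A2Y means (vertical axis) against the margin of the A2Y mean over the highest younger domestic mean (horizontal axis), both in log2(FPKM+1), for the 92 members. Of the points, 7 were called higher and 11 lower in WB, and the points under the dashed line have a WB mean below that of the highest younger group.

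The member highest in WB against A2Y was NT5E (ENSSSCG00000004291), the ecto-nucleotidase that forms adenosine outside the cell. It was at 2.17, 1.18 and 3.88 in A2Y and at 4.38, 3.35 and 4.56 in WB, so the groups overlapped through 1 A2Y library. It was 1.69 higher in WB (SE 0.46, adjusted p = 0.0179), and without A2Y-2, 1.07 (adjusted p = 0.0809). The SE of 0.46 pools all 6 groups, whereas the SD of NT5E was 1.37 in A2Y and 0.65 in WB. In a model of A2Y and WB alone NT5E was not called. In the younger domestic libraries NT5E stayed between 0.97 and 1.89.

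NTN4 (ENSSSCG00000000896), netrin-4, a protein of basement membranes, was at 3.62, 3.63 and 4.22 in A2Y and at 4.13, 5.10 and 5.48 in WB. It was 1.08 higher in WB (SE 0.31, adjusted p = 0.0221), and 0.79 without WB-3 (adjusted p = 0.103). CNN1 was at 7.07, 6.20 and 7.02 in WB and was 1.05 higher (SE 0.33, adjusted p = 0.0338). It was called in this comparison together with TAGLN (1.43, adjusted p = 0.000697) and DES (1.86, adjusted p = 0.000549), 3 of the 8 genes of the smooth muscle list, while MYH11 (0.13, adjusted p = 0.787) and ACTG2 (0.45, adjusted p = 0.314) were not called.

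CD80 was at 6.04, 4.76 and 5.95 in WB, above all 3 A2Y libraries, and was 0.99 higher (SE 0.27, adjusted p = 0.0191). NQO1, a quinone reductase, was at 3.54, 3.66 and 3.36 in A2Y and at 4.39, 4.67 and 3.85 in WB and was 0.78 higher (SE 0.21, adjusted p = 0.0179; named after its values were seen). CDS1, an enzyme of phospholipid synthesis, was at 2.30, 2.32 and 2.71 in A2Y and at 3.26, 2.55 and 3.98 in WB, a difference of 0.82 that was not called (adjusted p = 0.0864). Each of the 5 named calls in this direction was lost when a single library was left out, with the adjusted p reaching from 0.0769 for NQO1 to 0.141 for CNN1.

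LRRK2 (ENSSSCG00000000784), a large protein kinase that also binds GTP, showed little spread within groups. It was at 4.50, 4.50 and 4.59 in A2Y and at 3.14, 3.08 and 2.96 in WB. The groups did not overlap, and their SDs were 0.05 and 0.10. LRRK2 was 1.47 lower in WB (SE 0.11, adjusted p = 3.1e-06), and its adjusted p did not exceed 0.00378 in the 13 alternatives run for it. The WB level was also below the 3.51, 3.61 and 3.62 of A180d (difference -0.52, SE 0.11, adjusted p = 0.00525), the single member called in this direction.

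AHI1 (ENSSSCG00000004166), a protein of the primary cilium, was at 2.69, 2.62 and 3.03 in A2Y and at 1.61, 1.69 and 1.49 in WB. It was 1.19 lower in WB than in A2Y (SE 0.15, adjusted p = 0.000135; at most 0.009 in its 13 alternatives). The WB libraries overlapped the domestic libraries from birth to 180 days, which ran from 1.54 to 2.12. KMO (ENSSSCG00000025686), kynurenine monooxygenase, an enzyme of tryptophan breakdown, was at 4.60, 4.43 and 4.95 in A2Y and at 4.46, 3.41 and 3.22 in WB. It was 0.96 lower (SE 0.27, adjusted p = 0.0204), with 1 WB library inside the A2Y range.

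KCNIP1, a partner of potassium channels, was 0.88 lower in WB (SE 0.23, adjusted p = 0.0129), and KLF12, a zinc finger transcription factor, 0.85 lower (SE 0.26, adjusted p = 0.0305). TEX9 was 0.67 lower (adjusted p = 0.0258; named after its values were seen). The calls of KMO, KCNIP1, KLF12 and TEX9 were lost without single libraries of either group, with the adjusted p reaching 0.0917, 0.065, 0.126 and 0.097. In a model of A2Y and WB alone, none of these genes was called.

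Several other members had WB levels close to A2Y. The differences were -0.06 for FCER1G (SE 0.34), 0.14 for SPIC (SE 0.25), 0.33 for ACTC1 (SE 0.39), -0.15 for NR1D2 (SE 0.22), a repressor of the circadian clock, and -0.12 for GATM (SE 0.15). None was called by limma, with adjusted p from 0.591 to 0.927. NFKBIZ was at 3.94, 4.19 and 4.40 in A2Y and at 4.69, 4.50 and 4.71 in WB, above all 3 A2Y libraries, and was not called (0.46, SE 0.26, adjusted p = 0.223). IL7R was at 3.54, 4.25 and 4.03 in WB, below all 3 A2Y libraries, and was not called (-0.43, SE 0.34, adjusted p = 0.393). PPARG, a nuclear receptor that regulates lipid genes, was at 4.58, 4.32 and 4.83 in A2Y and at 5.28, 4.74 and 5.40 in WB (0.56, adjusted p = 0.224; named after its values were seen).

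Against A180d, the stage before A2Y, WB was higher in 48 members, where 12.5% of all genes were called higher, and lower in 1, where 5.14% were. The median difference was 1.02 against 0.09 over all genes. All 3 WB libraries lay above all 12 younger domestic libraries in 52 members (7.50% of all genes). The A180d libraries also entered the rule, which required a low A180d mean. NT5E (2.49), ACTC1 (2.31), DSTN, an actin-severing protein (2.04), NTN4 (1.89), MYH11 (1.83) and CNN1 (1.83) had the largest differences of the 26 members with a symbol called higher (limma, adjusted p from 0.000255 to 0.00197). With the libraries scaled by their median ratio, 47 members were called higher and 1 lower, and the calls over all genes shifted from 1619 higher and 664 lower to 1293 and 1079.

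Genes of other lists differed between A2Y and WB. Of the B cell list, MS4A1 (-1.96), CD79B (-1.36), CD22 (-1.15) and BLK (-0.38) were lower in WB (limma, adjusted p of at most 0.05). The call of BLK was lost in 8 of 13 alternatives, with an adjusted p of up to 0.198. Of the T cell list, CD3D (-1.10) and CD2 (-1.01) were lower of 9 measured genes, with a summed FPKM from 167 to 304 in A2Y and from 109 to 127 in WB. Without A2Y-1, the adjusted p was 0.1 for CD3D and 0.129 for CD2. Of the macrophage list, MSR1 (3.24), C1QA (1.23) and VCAM1 (0.83) were higher of 8 measured genes, with sums from 2078 to 2349 and from 3995 to 5102. MRC1 (0.85), MARCO (0.67), CD68 (0.16) and SPIC (0.14) were not called. CSF1R went the other way (-0.86, limma, adjusted p = 0.246), with WB values of 4.41, 1.54 and 1.62. It was called lower in 1 of 13 alternatives, so the list did not move as a whole. Of the fibroblast list 4 of 10 measured genes were higher (DCN, LUM, COL6A1 and COL1A2) and of the endothelial list 3 of 5 (LYVE1, PECAM1 and ESAM). The call of VCAM1 was lost in 2 of 13 alternatives (adjusted p up to 0.0966), that of PECAM1 in 6 (up to 0.117) and that of ESAM in 2 (up to 0.0642).

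The list of immediate early and stress genes held 6 of 13 measured genes called higher in WB, among them FOS (2.60), DUSP1 (2.12), GADD45B (1.25) and DNAJB1 (1.21), and the list median was 1.17. Its summed FPKM was from 150 to 168 in A2Y and from 290 to 793 in WB. The list of lysosome and iron recycling held 4 of 10 called higher (LAMP1 1.25, FTL 1.03, HEXA 0.67 and NPC2 0.50), with sums from 5173 to 5863 and from 8848 to 11112. The call of NPC2 was lost in 8 of 13 alternatives (adjusted p up to 0.145), and those of FTL and HEXA in a model of A2Y and WB alone (adjusted p = 0.0781 and 0.0573). The B cell genes named here and the T cell and macrophage genes were above 0 in all A2Y and WB libraries. The lists of the pancreas and of adipocytes matched 0 genes and were not analysed here. Over the 23 lists, 140 of 256 genes were matched, and the 20 lists other than smooth muscle, macrophages and T cells held 0 members. The part of these cell types and gene groups in the WB levels of the members was not tested.

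Over the whole series, the median level of all genes was from 2.39 to 2.55 in A2Y, from 2.35 to 2.66 in WB and from 2.21 to 2.44 in the other libraries. Between 12905 and 13359 lncRNAs were detected in the A2Y libraries, more than in any other library (from 10929 to 12646). A single gene took from 16.0 to 53.6% of the summed FPKM of a library. By the study's list of libraries, the A2Y libraries were sequenced more deeply than all others, and the part of this in the levels was not tested. Read counts were not used here, and how many reads support each value is unknown.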

How the data were processed

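Total RNA of spleen was sequenced by the authors as strand-specific paired-end libraries, 3 per group, with 1 library per animal. Per the labels' processing notes, TopHat, Cufflinks 2.2.1 and StringTie 1.3.3 were used with the build Sscrofa10.2. The deposited tables hold log2 values of FPKM plus 1, 1 column per library. The authors' own tests used read counts, which were not used here. The design of the tests assumed FPKM, and the log2 values were used as deposited. How many reads support each value is unknown, and the A2Y libraries were the most deeply sequenced.

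The E55d columns carry the numbers 1, 5 and 6, which the labels do not give, and were mapped to the group only. Differences between groups came from limma 3.58.1 (R 4.3.3), with 1 linear model for the 6 groups and 18 libraries, a mean-variance trend and two-sided tests. Benjamini-Hochberg adjustment ran over all 12913 genes for each contrast, and a gene was called at an adjusted p of at most 0.05. An FPKM above 0.1 in at least 3 libraries was required, which all genes met. Fold changes on the log2(FPKM+1) scale understate the change of low genes. The procedure was tested on simulated data. Symbols came from a table of gene names, which matched 8215 of 12913 identifiers. Values were summarised with Python 3.11.15, numpy 2.4.6 and pandas 2.3.3, and plotted with matplotlib 3.10.9.

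The members and the gene lists were chosen with earlier results of these data known. Genes with a symbol were named by a rule: the 15 largest margins, the 5 highest and 5 lowest differences of WB minus A2Y, members of the lists, and the 2 genes on each side of the margin of 0.75. Of a list, up to 4 other genes were named, with more where a count is spelled out. AKAP5, DSTN, HSPB8, NQO1, NR1D2, PPARG, TEX9 and ENSSSCG00000025386 were chosen after their values were seen. The comparison of A2Y with A180d was added after the values were seen, and only for list genes that are no members. Alternatives were margins of 0.5 and 1, a pseudocount of 0.1, group medians, scaling by the median ratio, no trend, only the compared groups, the replicate number as a block, an FPKM above 1, no filter, and the omission of single libraries. The table of lncRNAs served only to count detected lncRNAs. A result on 1 list gene is not reported here.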

Additional observations from a re-analysis of the deposited data

How the results depend on the processing

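The number of members depended on the settings that define them. It was 294 with a margin of 0.5, 33 with a margin of 1, 179 with a pseudocount of 0.1 and 58 with scaling by the median ratio, and from 73 to 161 with each library left out, the highest without A2Y-2. The median margin in the A2Y library that was not used ranged from 0.46 (A2Y-2) to 0.79. Between WB and A2Y, 18 members were called, and in a model of those groups alone 6 were, 0 higher and 6 lower in WB. The block on the replicate number gave 4 members called higher in WB, 5 called between W30d and B0d and 4 between A180d and W30d. Deviations of libraries with the same number correlated from -0.297 to 0.132. With 3 libraries per group, these values cannot settle whether the numbers pair the samples. No block was possible for B0d against E55d because the E55d columns carry no replicate number. With only the compared groups, 3 members were called between W30d and B0d.

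With each library left out, from 8 (without A2Y-1) to 17 members were called between WB and A2Y, from 1 to 7 higher and from 6 to 16 lower. From 4 to 9 were called between W30d and B0d (fewest without W30d-3), from 5 to 11 between A180d and W30d, from 30 to 35 between B0d and E55d and from 41 to 51 between WB and A180d. The median difference of WB minus A2Y ranged from -0.20 to 0.09, and its sign changed without A2Y-3.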
